A study of Sus scrofa with 11 samples.

Results

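The genes described here are 10 secreted regulators of the arterial matrix: the collagen triple helix repeat protein CTHRC1, the matricellular proteins POSTN, TNC, SPARC, THBS1 and THBS2, the adhesive glycoprotein FN1, and the 3 TGF-beta ligands TGFB1, TGFB2 and TGFB3. They were taken by gene name from a table of 35670 genes, each name matched 1 row, and all 10 were among the 15930 genes with enough counts to be tested. The list was drawn up with the treatment contrast of these same libraries already known: CTHRC1 was chosen by its fold change between the treatments, and the others were grouped around it by function. The fold changes of the 10 genes between treatments are therefore given as a description, without a test of their own.

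RNA was sequenced from carotid artery of pigs (Sus scrofa). All animals ate a Western diet rich in fat and calories over 12 weeks and were infused intravenously every week, under anaesthesia, at 400 nM. Controls received single-walled carbon nanotubes alone (SWNT), a carrier taken up by phagocytes, and treated animals received nanotubes loaded with a chemical that blocks SHP-1, a tyrosine phosphatase (SWNT-SHP1i), so every animal had diet, nanotubes and anaesthesia and no group was free of them. There were 5 SWNT and 5 SWNT-SHP1i libraries, each from its own animal. SWNT-SHP1i replicate 4, an animal that according to its label died ahead of tissue collection, is not analysed here. The labels give no breed, sex or age.

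Matricellular proteins are secreted into the matrix without forming its main scaffold, and they alter how cells attach, move and respond to growth factors. TGF-beta is secreted in a latent complex held in the matrix by latent TGF-beta binding proteins, and integrins, proteases and THBS1 can free it to act on TGFBR2 and TGFBR1, which signal through Smad proteins. In arteries these genes are known from wall repair, neointima and plaque caps, where smooth muscle cells and fibroblasts make most of the matrix. The RNA is from whole vessel wall, so fewer cells of a type and less RNA per cell cannot be told apart in any value below.

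Total counts ran from 27593564 to 47718854 per library. SWNT-SHP1i replicates 3 and 6 stood apart from the others. Their median root-mean-square distance to the other libraries was 1.81 and 1.69 on the log2 scale. It was 1.13 for SWNT replicate 3 and 0.733 to 0.864 for the rest. SWNT replicate 3 and SWNT-SHP1i replicate 3 are the animals whose number does not begin with B9, which the labels do not explain. Contractile smooth muscle genes, the defining markers of the artery's media, were abundant in all libraries, with a summed level of 38900 to 58200 CPM (counts relative to TMM-scaled library size) in SWNT and 18800 to 47600 CPM in SWNT-SHP1i. Of the marker lists, all 10 macrophage, all 10 fibroblast, 7 of 8 endothelial and 4 of 4 tested neutrophil genes had positive fold changes in SWNT-SHP1i. So did 5 of 6 tested platelet genes and both tested skeletal muscle genes. Positive fold changes were found in 0 of 10 contractile smooth muscle, 0 of 5 Schwann cell, 0 of 3 erythroid and 1 of 6 adipocyte genes. Their part in the values below was not tested.

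Per unit of exon length, SPARC dominated the group in control animals. The collagen-binding glycoprotein SPARC stood at 5490 ± 787 FPKM (CPM per kilobase of exon, mean ± SD, n = 5) in SWNT and was number 2 of the 15930 tested genes by this measure. FN1, which encodes fibronectin, followed at 354 ± 62.3 FPKM, a mean 15.5 times lower. TNC, the large hexameric glycoprotein tenascin-C, stood at 142 ± 53.9 FPKM and TGFB3 at 109 ± 20.5 FPKM. THBS2, a trimeric thrombospondin, was at 62.3 ± 6.83 FPKM, TGFB1 at 27.7 ± 4.18 FPKM and THBS1 at 23.2 ± 28.3 FPKM. The THBS1 mean rests on SWNT replicate 3, at 73.3 FPKM: without that library it was 10.6 FPKM, below POSTN at 12.3 FPKM. The lowest levels over all 5 libraries were those of POSTN, the periostin gene, at 10.9 ± 5.2 FPKM, TGFB2 at 9.33 ± 1.33 FPKM and CTHRC1 at 7.69 ± 5.39 FPKM. The ranges of the 5 SWNT libraries did not overlap between SPARC and FN1, FN1 and TNC, TGFB3 and THBS2, or THBS2 and TGFB1. They did overlap for the neighbours TNC and TGFB3, TGFB1 and THBS1, and for each step down from THBS1 to CTHRC1, so the order within those pairs is not settled beyond the spread of the animals. In SWNT-SHP1i the mean FPKM of CTHRC1 was 30.7 ± 33.7, and it stood in place 7 of the 10 instead of place 10. Without replicate 6, at 90.9 FPKM, its mean was 15.7 FPKM, next to 15.6 FPKM for POSTN.

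**Figure D1:**
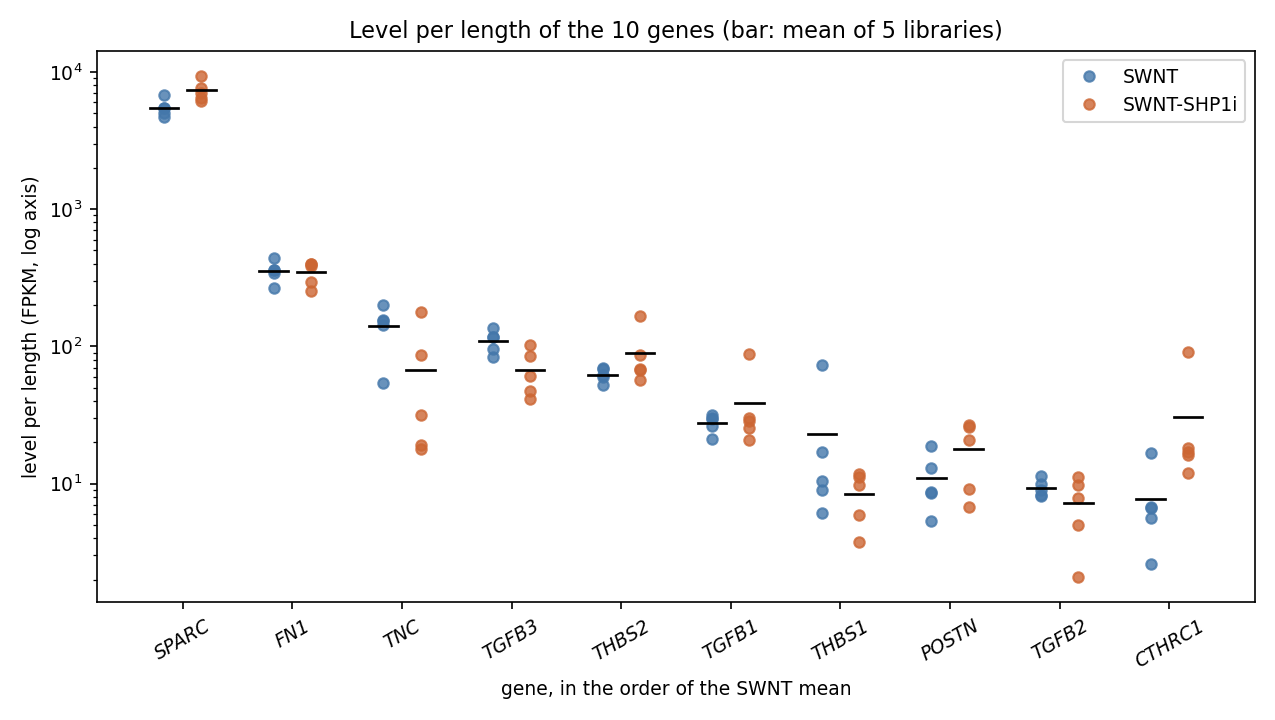
Level per length (FPKM, log axis) of the 10 genes in every library, ordered by the SWNT mean; points are libraries (5 per group) and bars are group means. SPARC lies above all other genes in both groups, and the CTHRC1 point at 90.9 FPKM is SWNT-SHP1i replicate 6.

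The spread between control animals was wider for 4 of these genes than for the other 6. THBS1 had an SD of 1.39 on the log2 CPM scale among the 5 SWNT libraries, CTHRC1 0.957, TNC 0.736 and POSTN 0.684, where the median of all tested genes was 0.344. The other 6 genes had SDs of 0.162 to 0.277, below that median. For THBS1 and TNC the SD depended on 1 animal each: without SWNT replicate 3 the SD of THBS1 was 0.615, and without SWNT replicate 4 that of TNC was 0.214, below the median of all genes. The SD of CTHRC1 was 0.649 and that of POSTN 0.523 without SWNT replicate 1. Over all 5 animals THBS1 and CTHRC1 lay at percentiles 95.0 and 88.8 of all tested genes by this SD, while the related THBS2 lay at percentile 13.7.

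In the comparison of treatments, 0 of the 15930 tested genes passed edgeR's quasi-likelihood test at an adjusted p under 0.05 (0% of genes called), and so 0 of the 10. DESeq2 and limma-voom also called 0 genes. The smallest adjusted p of any gene was 0.997 with edgeR, 0.0631 with DESeq2 and 0.0982 with limma-voom, and it was 0.277 with edgeR without SWNT-SHP1i replicate 5. At an unadjusted p under 0.05 there were 739 genes with edgeR, 986 with DESeq2 and 1385 with limma-voom. EdgeR had 1 of the 10 higher in SWNT-SHP1i at that threshold (CTHRC1), beside 3.49% of all genes, and 2 of the 10 lower (THBS1 and TGFB3), beside 1.15% of all genes. Because the 10 were chosen with this contrast known, nothing is read from those shares. By unadjusted p, 3 of the 10 had a p under 0.05 with DESeq2 and 3 with limma-voom, but not the same 3 as with edgeR. DESeq2 gave CTHRC1 a log2 fold change of 2.06 ± 0.587 (SE) but no p, so CTHRC1 could not be counted among its 3. Its absence there does not mean a p above the threshold. With limma-voom THBS1 had a log2 fold change of -0.22 (adjusted p 0.93) and is not among its 3. Once SWNT-SHP1i replicates 3 and 6 were left out, edgeR had 0 of the 10 at that threshold, beside 534 of 16576 genes. Fold changes were positive for 5 of the 10, where 50.8% of all genes had a positive one, and the median log2 fold change was 0.19 for the 10 (-0.013 without SWNT-SHP1i replicate 6) and 0.0056 for all genes tested. None of the 10 separated the groups completely, which 0.0816% of all genes did in the higher and 0.276% in the lower direction.

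**Figure D2:**
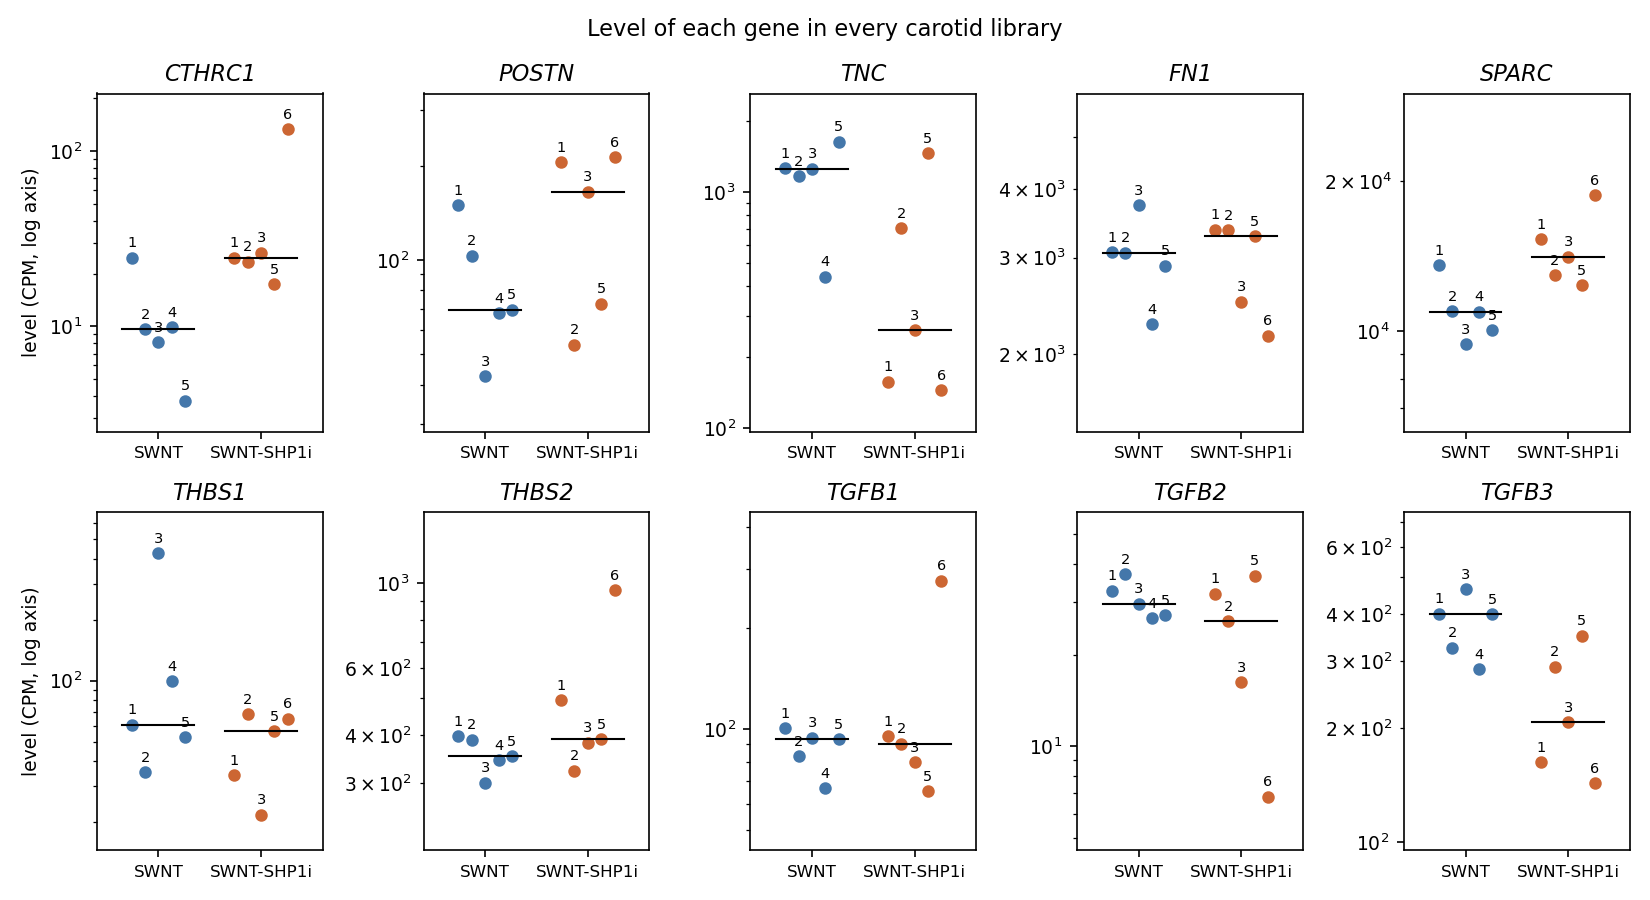
Level (CPM, log axis) of each gene in every library; points carry the replicate number and bars are group medians. The groups overlap in all 10 panels, with SWNT-SHP1i replicate 6 at the top for CTHRC1, POSTN, SPARC, THBS2 and TGFB1 and at the bottom for TNC, FN1, TGFB2 and TGFB3.

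CTHRC1 encodes a small secreted protein with a short collagen-like stretch, known from injured arteries and activated fibroblasts, and lies on the minus strand at chr4:33759542-33771582 (Sscrofa11.1). It stood at 24.6, 9.67, 8.13, 9.89 and 3.77 CPM in SWNT replicates 1 to 5, and at 24.6, 23.4, 26.3, 17.3 and 133 CPM in SWNT-SHP1i replicates 1, 2, 3, 5 and 6. Treated libraries other than replicate 6 lay between 17.3 and 26.3 CPM, a narrow band that SWNT replicate 1 reached and the other 4 controls did not. Replicate 6 lay far above all other libraries. The mean level was 3.24 ± 0.96 log2 CPM (SD, n = 5) for SWNT, against 5.01 ± 1.16 for SWNT-SHP1i, and the fitted log2 fold change was 2.0 ± 0.63 (SE). Leaving out replicate 6 gave 1.03, leaving out replicates 3 and 6 gave 0.96, and leaving out SWNT replicate 1 gave 2.51.

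POSTN (chr11:13224959-13258978, minus strand) encodes periostin, which binds integrins and takes part in collagen cross-linking. Its levels were 149, 103, 42.5, 67.7 and 69.5 CPM in SWNT replicates 1 to 5, and 205, 53.7, 165, 72.6 and 212 CPM in SWNT-SHP1i replicates 1, 2, 3, 5 and 6. Of the treated libraries 3 were above every control (replicates 1, 3 and 6) and 2 inside the control range. Its log2 fold change was 0.71 ± 0.42 (SE), and it was 0.36 without replicates 3 and 6 and 0.096 with limma-voom.

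SPARC (chr16:71357586-71381161, plus strand) varied little between animals of a group, over a 1.44-fold range in SWNT and a 1.52-fold range in SWNT-SHP1i. It stood at 13530, 10960, 9413, 10920 and 10020 CPM in SWNT, and at 15260, 12940, 14100, 12340 and 18730 CPM in SWNT-SHP1i, in the same order of replicates. All treated libraries exceeded 4 of the 5 controls, and SWNT replicate 1 lay among them. SPARC had a log2 fold change of 0.42 ± 0.19 (SE), which stayed between 0.31 and 0.51 in the 19 alternative fits. COL1A1, the chain of type I collagen that SPARC binds, ran from 14200 to 33200 CPM in SWNT and from 27500 to 53800 CPM in SWNT-SHP1i, again with SWNT replicate 1 as the highest control.

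FN1 (chr15:117658099-117731014, minus strand) had the smallest fold change of the 10 genes. Fibronectin mRNA was at 3066, 3063, 3747, 2264 and 2900 CPM in SWNT and at 3373, 3370, 2492, 3284 and 2160 CPM in SWNT-SHP1i. Treated replicate 6 was just below the lowest control and the other 4 lay within the control range. For FN1 the log2 fold change was -0.035 ± 0.21 (SE), and it became positive in 6 of the 19 alternative fits, at most 0.18.

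TNC (chr1:255533238-255630376, minus strand) was lowest in treated animals, but not in all of them. Tenascin-C mRNA stood at 1268, 1171, 1258, 439 and 1642 CPM in SWNT replicates 1 to 5. In SWNT-SHP1i replicates 1, 2, 3, 5 and 6 it stood at 157, 706, 260, 1464 and 145 CPM. Treated animals were thus spread over a 10.1-fold range, with 3 below every control and replicate 5 among the highest of all. SWNT had a mean level of 10.05 ± 0.74 log2 CPM (SD, n = 5) against 8.49 ± 1.45 for SWNT-SHP1i, and the fitted log2 fold change was -1.08 ± 0.61 (SE). This fitted value compares mean counts, so it is smaller than the difference of the mean log2 CPM, -1.56. Leaving out SWNT-SHP1i replicate 5 gave -1.87, and leaving out replicates 3 and 6 gave -0.57.

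The libraries lowest in TNC were also lowest in contractile smooth muscle genes and highest in CKM, the muscle creatine kinase gene. SWNT-SHP1i replicates 1, 3 and 6 had the 3 lowest TNC levels and the 3 lowest sums of contractile genes (27780, 27650 and 18820 CPM, against 37220 to 58210 CPM in the other 7). CKM stood at 143, 166 and 90.8 CPM in these 3 libraries and at 6.92 to 23.9 CPM in the other 7. It made up 88.9% to 100% of the sum of the skeletal muscle list in every library, and without it that sum was 0.889, 3.37 and 11.4 CPM in the 3 libraries and at most 1.12 CPM in the others. Of the rest of that list, ACTA1 reached at most 0.0599 CPM in SWNT and 3.41 CPM in SWNT-SHP1i. In the same order the highest levels were 1.03 and 6.24 CPM for TNNI2 and 0.251 and 1.58 CPM for MYH7. For MYH1 (0.182 and 0.102 CPM), TNNT3 (0.272 and 0.166 CPM) and MYBPC1 (0.151 and 0.12 CPM) the highest level was lower in SWNT-SHP1i. Each of these genes was at 0 in at least 1 library. The part of contractile genes or CKM in the TNC values was not tested.

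**Figure D3:**
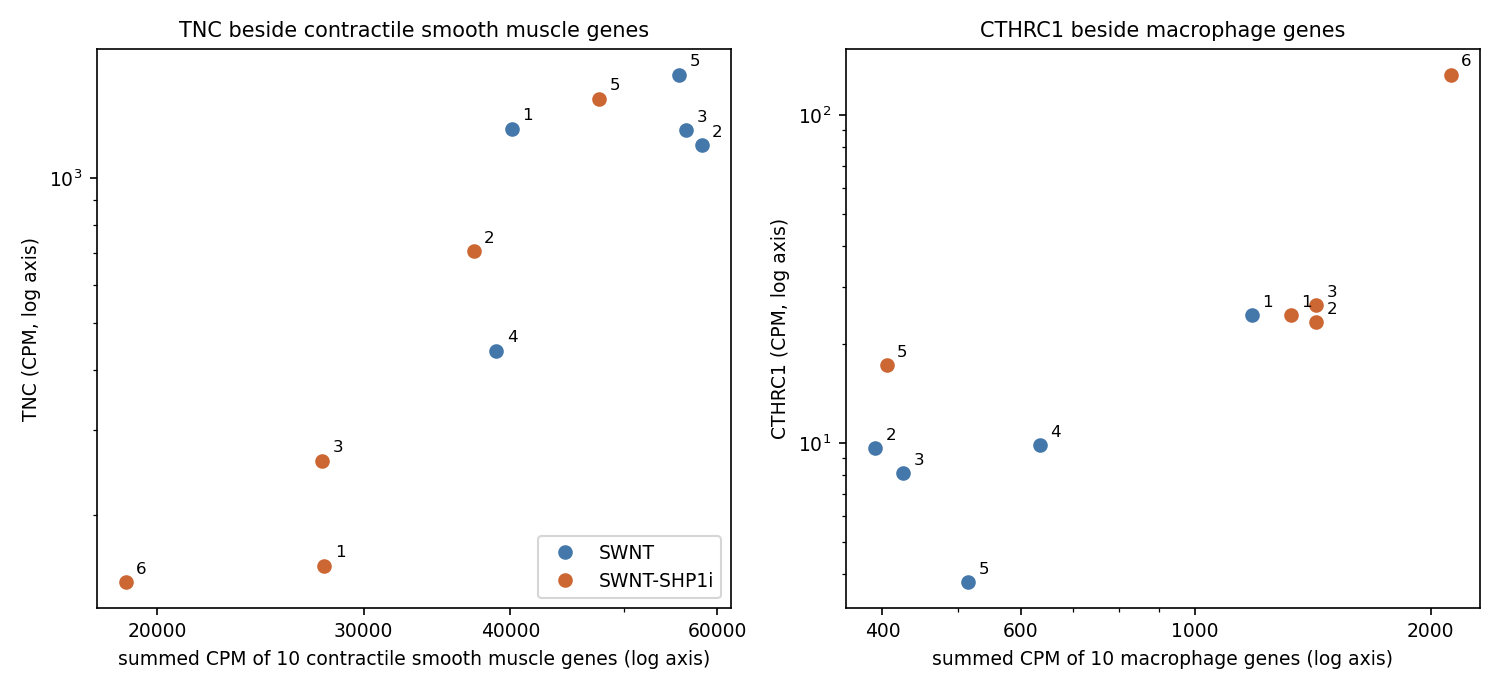
Left, TNC against the summed CPM of 10 contractile smooth muscle genes; right, CTHRC1 against the summed CPM of 10 macrophage genes; both axes are log axes, each point is a library and numbers are replicates. SWNT-SHP1i replicates 1, 3 and 6 lie at the lower left for TNC, and SWNT-SHP1i replicate 6 lies alone at the upper right for CTHRC1.

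The 5 libraries with CTHRC1 at 23.4 CPM or more also had the 5 highest sums of macrophage genes. Their summed level was 1180, 391, 425, 636 and 514 CPM in SWNT replicates 1 to 5 and 1328, 1428, 1428, 405 and 2120 CPM in SWNT-SHP1i replicates 1, 2, 3, 5 and 6. SWNT-SHP1i replicate 5 had a macrophage sum inside the control range and CTHRC1 at 17.3 CPM, above 4 of 5 controls. Fibroblast genes summed to 2830 to 6620 CPM in SWNT and 5700 to 8170 CPM in SWNT-SHP1i. In replicate 6, the highest, 52.9% of the sum was SFRP2, a secreted Wnt-binding protein gene, at 4320 CPM. Without SFRP2 the fibroblast sum was 2810 to 6570 CPM in SWNT and 3850 to 7560 CPM in SWNT-SHP1i, and replicate 6 was the lowest treated library. None of the 10 macrophage and none of the 10 fibroblast genes was at 0 in any library, and their part in the CTHRC1 values was not tested.

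THBS1 and THBS2 encode thrombospondins 1 and 2, which share a domain plan and bind CD47 and CD36, while activation of latent TGF-beta is known for THBS1. THBS1 (chr1:131728784-131746115, minus strand) stood at 60.6, 35.3, 426, 99.1 and 52.4 CPM in SWNT and at 34.0, 68.0, 21.8, 56.4 and 64.7 CPM in SWNT-SHP1i. The level in SWNT replicate 3 exceeded that of every other library, and without it the controls, at 35.3 to 99.1 CPM, overlapped the treated libraries, at 21.8 to 68.0 CPM. A log2 fold change of -1.46 ± 0.63 (SE) was -0.34 without that animal and -0.15 among animals with B9 numbers, the 8 whose number begins with B9, which also leaves out SWNT-SHP1i replicate 3. SWNT replicate 3 had the highest sum of erythroid genes too, 1295 CPM against at most 325 CPM elsewhere. Platelet genes, from cells rich in THBS1 protein, summed to 23.2 CPM there and to 9.45 to 26.1 CPM in the other 9, with PPBP and GP1BB among those at 0 in some libraries. The part of any of these in the THBS1 value was not tested.

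THBS2 (chr1:855389-882473, plus strand) was steadier. Levels were 398, 389, 300, 344 and 353 CPM in SWNT and 495, 323, 383, 391 and 960 CPM in SWNT-SHP1i. Treated replicates 1 and 6 were above every control and the other 3 inside the control range. Its log2 fold change of 0.52 ± 0.28 (SE) was 0.16 without replicate 6. Per unit of length THBS2 made up 77.1 ± 20.4% of the summed FPKM of the pair in SWNT (SD, n = 5). The share was 90.5 ± 5.16% in SWNT-SHP1i, and SWNT replicate 3, at 41.7%, was the only library in which THBS1 was the more abundant of the pair.

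Over the 10 libraries the fold changes of TGFB2 and TGFB3 were negative and that of TGFB1 positive. TGFB3 lies on the minus strand at chr7:99133879-99162232, and 1 of its exons overlaps IFT43 on the opposite strand, which had 4.78% of its mean count. It stood at 400.5, 326, 464, 286 and 399.6 CPM in SWNT and at 162, 290.5, 207, 350.0 and 143 CPM in SWNT-SHP1i. Treated replicates 1, 3 and 6 were below every control, and replicates 2 and 5 inside the control range. Those 3 libraries are the ones with the lowest sums of contractile smooth muscle genes, whose part in the TGFB3 values was not tested. TGFB3 had a log2 fold change of -0.70 ± 0.27 (SE), which stayed between -0.90 and -0.48 in the 19 alternative fits.

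TGFB1 (chr6:49332173-49349046, minus strand), the ligand best known from platelets and immune cells, showed a single high library. It stood at 100.5, 83.1, 94.2, 66.8 and 93.4 CPM in SWNT and at 95.3, 90.5, 79.8, 65.4 and 277 CPM in SWNT-SHP1i. Apart from replicate 6 the treated libraries lay between 65.4 and 95.3 CPM, almost exactly the control range. Its log2 fold change of 0.47 ± 0.36 (SE) was -0.082 without replicate 6 and -0.057 without replicates 3 and 6.

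TGFB2 (chr10:8305539-8390341, plus strand) had the fewest reads of the 3 ligands. It stood at 32.6, 37.0, 29.5, 26.4 and 27.0 CPM in SWNT and at 31.8, 25.8, 16.2, 36.5 and 6.82 CPM in SWNT-SHP1i, the last from 164 counts. Treated replicates 3 and 6 were well below the controls, replicate 2 just below them and the other pair inside their range. The log2 fold change was -0.38 ± 0.36 (SE), and it was 0.045 without replicates 3 and 6.

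TGFB3 was the main ligand transcript in every library but 1. It made up 74.5 ± 2.27% of the summed FPKM of the 3 ligands in SWNT (SD, n = 5), with TGFB1 at 19.0 ± 1.19% and TGFB2 at 6.5 ± 1.38%. These shares hardly varied among control animals: TGFB3 ran from 71.6% to 77.7%. In SWNT-SHP1i replicates 1, 2, 3, 5 and 6 the TGFB3 share was 54.3%, 69.9%, 66.6%, 76.2% and 31.7%. Replicate 5 lay inside the control range and the other 4 below it. In replicate 6 TGFB1 made up 66.8%, and in replicate 1, whose TGFB1 level was that of the controls, it made up 34.6% beside a low TGFB3.

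**Figure D4:**
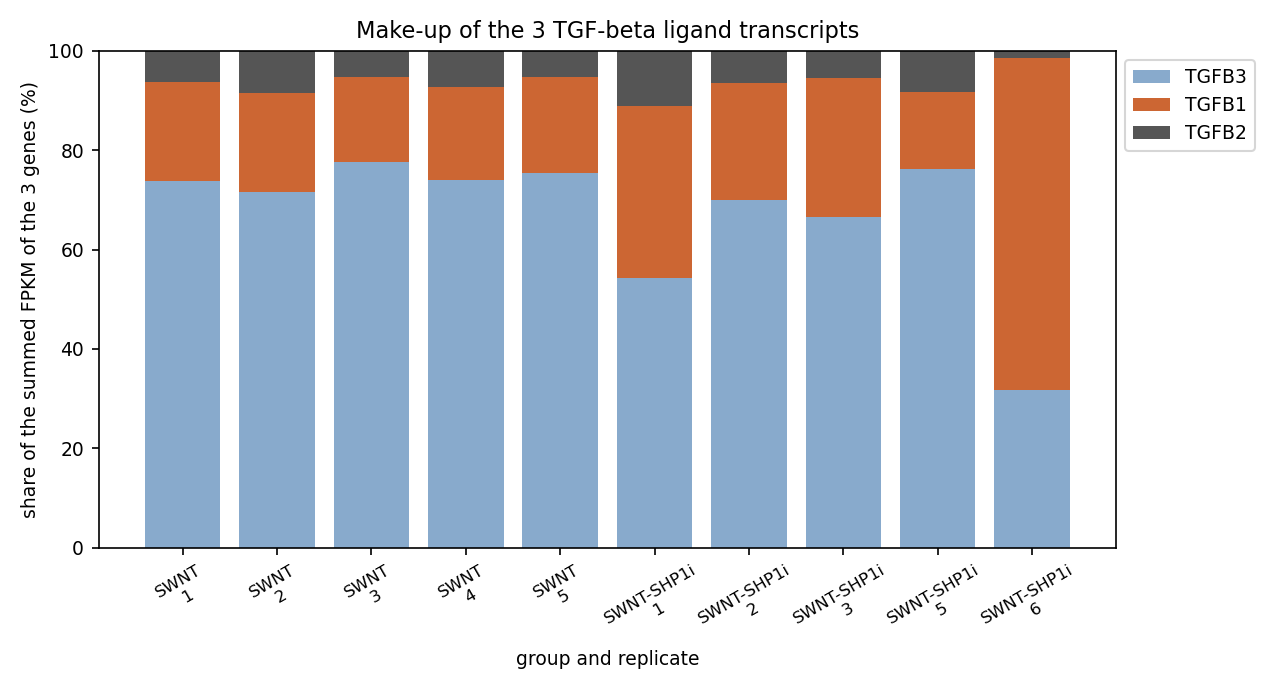
Share of TGFB1, TGFB2 and TGFB3 in their summed FPKM (%), as 1 stacked bar per library. The TGFB3 part is 71.6% to 77.7% in the SWNT bars and 31.7% to 76.2% in the SWNT-SHP1i bars.

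**Figure D5:**
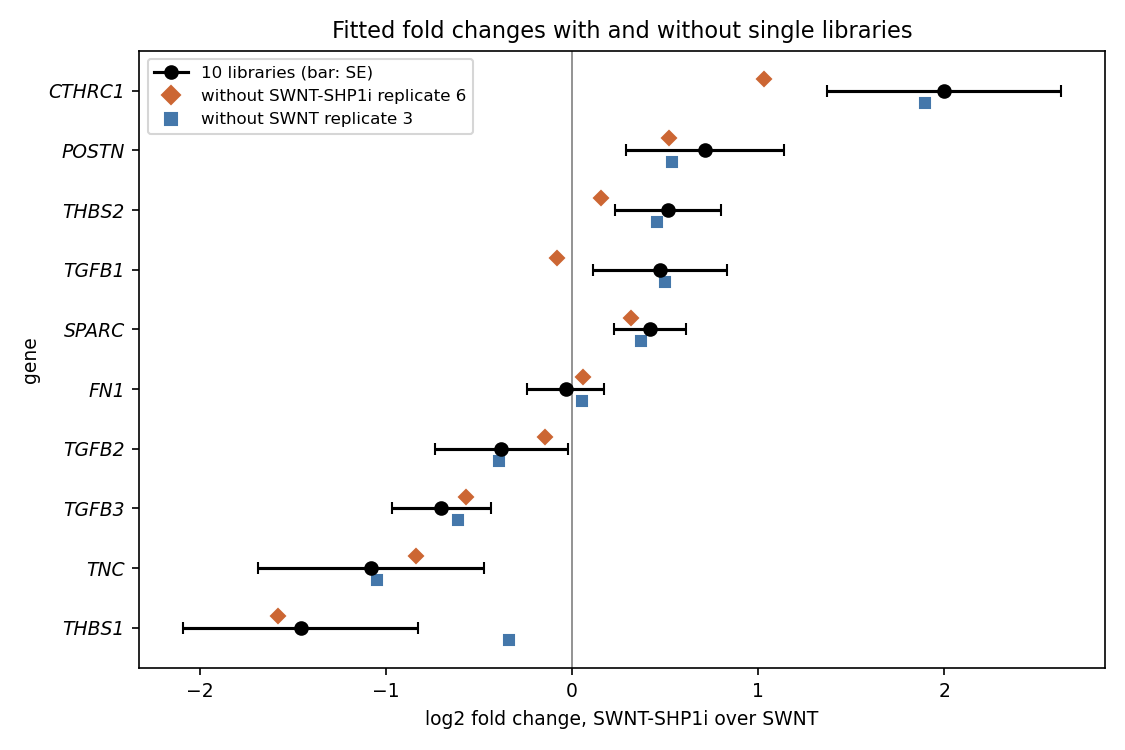
Log2 fold change of SWNT-SHP1i over SWNT for each gene in the fit of 10 libraries (circles, bars are SE), without SWNT-SHP1i replicate 6 (diamonds) and without SWNT replicate 3 (squares). CTHRC1 moves from 2.0 to 1.03 and TGFB1 from 0.47 to -0.082 without replicate 6, and THBS1 from -1.46 to -0.34 without SWNT replicate 3.

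The 10 genes followed several patterns over the libraries, not 1. Likeness was measured as the root-mean-square difference between 2 genes' log2 CPM over the 10 libraries, each gene centred on its own mean. SPARC and THBS2 were nearest to each other, at 0.264, and TGFB1 was nearest to THBS2, at 0.285. POSTN was also nearest to THBS2 (0.542), FN1 to SPARC (0.453), and TGFB3 to FN1 (0.464). TNC, TGFB2 and THBS1 were each nearest to TGFB3, at 0.783, 0.519 and 0.948. CTHRC1 was nearest to POSTN, at 0.963, and CTHRC1 and TNC were the farthest apart of all pairs, at 2.39. Genes that vary little are close by this measure whatever their direction.

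Outside the list, the named genes with the pattern most like CTHRC1 among 13027 compared were CCBE1, CACNA1D, LGALS3, F13A1, PDPN and CEBPA, at 0.331 to 0.533, where the SD of CTHRC1 itself was 1.37. CCBE1, a secreted collagen- and calcium-binding protein needed for lymphatic vessels, stood at 5.02, 1.15, 1.52, 1.56 and 0.718 CPM in SWNT and at 4.96, 4.30, 5.21, 3.84 and 14.1 CPM in SWNT-SHP1i. Like CTHRC1 it was high in SWNT replicate 1 and all treated libraries and highest in replicate 6. LGALS3, the macrophage-rich lectin galectin-3, ran from 15.1 to 41.2 CPM in SWNT and from 33.3 to 296 CPM in SWNT-SHP1i. The clotting factor gene F13A1, the membrane glycoprotein gene PDPN, the calcium channel gene CACNA1D and the transcription factor gene CEBPA were likewise highest in replicate 6. Without replicate 6 the 6 nearest genes were CCBE1, HMMR, MAF, TIAM1, SEPTIN3 and GFPT2, so 1 of the 6 remained.

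No gene of the machinery around the TGF-beta ligands passed the test. Of the genes that hold TGF-beta latent or free it, 0 of 15 tested passed in either direction and 7 had positive fold changes, with a median log2 fold change of -0.090. The most abundant, LTBP4, a latent TGF-beta binding protein, was at 0.25 ± 0.29 (log2 fold change, SE), and LTBP1 at -0.30 ± 0.34. The integrin chains ITGB1 and ITGB5 stood at -0.29 ± 0.38 and -0.36 ± 0.17. ITGB6, an activator of TGF-beta in epithelium, was at 0 in all 10 libraries.

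Among receptors, Smads and their regulators 0 of 16 passed in either direction and 9 had positive fold changes, with a median of 0.017. The signalling receptors TGFBR1 (0.091 ± 0.25, SE) and TGFBR2 (0.12 ± 0.23) had fold changes within 1 SE of 0. ENG, the endothelial co-receptor, ran from 104 to 228 CPM in SWNT and from 110 to 734 CPM in SWNT-SHP1i (1.0 ± 0.48), and the second highest treated library stood at 268 CPM. SMAD7, the feedback inhibitor of the pathway, stood at 12.6 to 43.4 CPM in SWNT and 1.96 to 28.6 CPM in SWNT-SHP1i (-0.99 ± 0.56). The feedback regulator PMEPA1 had a fold change of -0.17 ± 0.23 and the Smad repressor SKI one of -0.072 ± 0.18.

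Fibrosis genes known to respond to TGF-beta were mixed in direction. Of 19 tested, 0 passed in either direction and 11 had positive fold changes, with a median of 0.15. COL1A1 stood at a log2 fold change of 0.98 ± 0.29 (SE), the elastin gene ELN at 0.14 ± 0.27 and the smooth muscle actin gene ACTA2 at -0.42 ± 0.21. ACTA2 and TAGLN on this list are also contractile smooth muscle markers.

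Other matricellular genes also gave 0 of 19 tested past the threshold in either direction, with 11 positive and a median of 0.095. MGP, which restrains calcification, was the most abundant per length, with a fold change of -0.16 ± 0.17 (log2, SE). SPARCL1, the nearest relative of SPARC on the list, had one of -0.38 ± 0.44, with 289 CPM in SWNT-SHP1i replicate 6 and 1800 to 2850 CPM in the other 9, opposite to SPARC in that library. CCN3, a member of the CCN family, had one of -0.61 ± 0.33 and was also lowest in replicate 6, at 435 CPM. Of the cell surface receptors of these proteins 0 of 18 passed in either direction and 8 were positive, with a median of -0.014. CD47, the thrombospondin receptor that also marks cells not to be engulfed, had a log2 fold change of 0.015 ± 0.24 (SE), the fibronectin receptor chain ITGA5 one of 0.014 ± 0.38, the heparan sulphate proteoglycan SDC2 one of 0.14 ± 0.19 and the proteoglycan CSPG4 one of -0.60 ± 0.26. CD36, SDC4 and LRP1 were not matched by symbol and are not analysed here.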

How the data were processed

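Poly-A selected RNA of pig carotid artery was sequenced. The authors deposited 1 table of raw read counts per gene, with coordinates and exon length per the file headers. Trim Galore, STAR, DESeq2 and the build Sscrofa11.1 are named in the submitters' processing notes, but how reads were counted, with or without strand, and on which annotation release is not stated in any source used here. Groups follow the treatment label, and replicate numbers, in accession order, pair nothing. Over 45 pairs of libraries the median chi-square per gene was at least 5.40, where sampling noise gives 0.455, so no library was counted as a repeat.

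Counts were filtered (filterByExpr, minimum count 10), scaled by TMM and tested with the quasi-likelihood test of edgeR 4.0.16 (R 4.3.3, robust), adjusted by Benjamini-Hochberg over 15930 genes and checked on simulated data. In the simulation 16% of genes with a true log2 fold change of 1 in size passed, 62% at 2 and 86% at 3. It changed 50 genes at each size among 15930, drew genes independently and had no library standing apart. Those shares are therefore not the power of the real comparison. A gene that did not pass is therefore not shown to be unchanged. The SE is approximate: the size of the log2 fold change over the square root of F. CPM and FPKM use TMM-scaled library sizes, and log2 CPM a prior count of 2. Alternatives used DESeq2 1.42.0, limma 3.58.1, other scalings and filters, the range of animal numbers, and fewer libraries.

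The 10 genes, the lists and the alternatives were chosen with earlier results of these data known. Of each pathway list the 3 genes with the highest mean FPKM and 8 fixed genes were named, along with the 6 genes nearest to CTHRC1; 1 of the fixed genes is not reported here. Genes named by position are not used, and no sequence is shown.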

Additional observations from a re-analysis of the deposited data

Results flagged for a closer look

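In 20 groups of 5 libraries (10 genes in 2 treatments), 3 had a library whose distance to its nearest neighbour was more than 0.71 of the group's whole range. Chance would mark about 1 in 20 if the log2 CPM values within a group were normally distributed, which was not tested. The 10 genes were also measured in the same libraries, so the groups are not independent. SWNT-SHP1i replicate 6 was marked for both CTHRC1 and TGFB1, so the number marked is not compared with that rate. CTHRC1 in SWNT-SHP1i replicate 6 stood at 7.05 log2 CPM (133 CPM, against 17.3 to 26.3 CPM in the other 4), a distance of 0.795 of the range. TGFB1 in the same library stood at 8.11 log2 CPM (277 CPM, against 65.4 to 95.3 CPM), at 0.739. TNC in SWNT replicate 4 stood at 8.78 log2 CPM (439 CPM, against 1170 to 1640 CPM in the other controls), at 0.743. That control animal had a contractile smooth muscle sum of 38910 CPM, the lowest of the SWNT libraries. SWNT replicate 1 had a sum close to it, 40130 CPM, with TNC at 1268 CPM. The part of contractile genes in the TNC value was not tested.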

How the results depend on the processing

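In all 19 alternative fits 0 genes passed. The median log2 fold change of the 10 genes was 0.19 and ran from -0.013 (without SWNT-SHP1i replicate 6) to 0.24 with 1 library left out. The number of the 10 with an unadjusted edgeR p under 0.05 ran from 1 to 5 there. It was 1 among animals with B9 numbers, against 3 in the reported fit. The number over all tested genes moved too. With 1 library left out it ran from 421 of 16191 (without SWNT replicate 2) to 1583 of 16173 (without SWNT-SHP1i replicate 5). It was 539 of 16048 among animals with B9 numbers, against 739 of 15930 in the reported fit. Nothing is read from the counts of the 10. CTHRC1, POSTN, TNC, SPARC, THBS1, THBS2 and TGFB3 kept their direction in all 19. FN1 turned positive with limma-voom (0.18), among animals with B9 numbers (0.11) and with SWNT-SHP1i replicates 3 and 6 left out (0.16), and ran from -0.13 to 0.057 with 1 library left out. TGFB1 ran from -0.082 to 0.63 with 1 library left out and was -0.057 without replicates 3 and 6, where TGFB2 was 0.045. The causes were not tested beyond the libraries named. By median FPKM 8 of the 10 genes kept their place in the order of levels, and by raw library size all 10. No paired analysis was possible because the labels give no pairing of animals and the replicate numbers only follow accession order. The lowest count of any of the 10 genes in a library was 126. The SDs and mean FPKM without single libraries were added after seeing the data.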
